A study of Mus musculus with 8 samples.

Results

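The 10 genes followed here encode ATP-binding cassette (ABC) efflux pumps of mouse liver: the multidrug resistance-associated proteins Abcc1 to Abcc6, the breast cancer resistance protein Abcg2, the P-glycoprotein Abcb1a, the phospholipid floppase Abcb4 and the bile salt export pump Abcb11. They are the 10 genes named for this question, and their probe sets were found as those that the platform annotation pairs with exactly 1 of these genes by its gene identifier. Of the 10 genes, 9 had at least 1 such probe set, 17 probe sets in all of the 22690 on the array. Abcc4 had none and was not analysed here. The 9 genes are among 12393 genes with a probe set of their own, and all 9 passed the filter on low values, which kept 7534 genes.

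The samples were livers of 4-week-old female mice of the C57BL/6J background, 4 wild-type (WT) and 4 labelled TrxR1/Gsr-null, with 1 Affymetrix 3′ expression array per animal and no treatment in either group. Txnrd1 encodes TrxR1, the thioredoxin reductase of the cytosol, and Gsr encodes the reductase of oxidized glutathione. These enzymes keep the thioredoxin and glutathione pools reduced. The labels name neither the alleles nor the cells in which the genes were removed. Each value is a log2 expression value after GCRMA, a background correction and normalization of such arrays. A fold is 2 to the power of the log2 difference between group means, and a gene was called when its adjusted p in limma, a linear model fitted across all tested genes, was below 0.05. Arrays count no molecules, and the precision is limited by the 4 of them in each group.

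Hepatocytes take up bile salts, hormones and drugs from the blood, conjugate many of them to glutathione, glucuronate or sulfate, and send the products either into bile across the canalicular membrane or back into blood across the basolateral membrane. ABC pumps drive both routes with ATP. Abcc2, Abcg2, Abcb11, Abcb4 and Abcb1a sit in the canalicular membrane, and Abcc3, Abcc4 and Abcc6 are basolateral pumps of hepatocytes. Several pumps of the Abcc family are known as targets of Nrf2, the transcription factor that the submitters' title names, which binds antioxidant response elements in DNA.

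The targeted genes were examined before the pumps. Gsr was 2.23-fold lower at its brighter probe set (7.16 ± 0.09 in WT and 6.01 ± 0.22 in the null livers, SD, n = 4 each, adjusted p = 0.00336 over all probe sets). Txnrd1 was 4.31-fold higher at the 1 of its 3 probe sets that stood above background (9.82 ± 0.17 and 11.92 ± 0.19, SD, n = 4 each, adjusted p = 0.000156), which goes against a plain reading of the label. Which part of Txnrd1 was removed is not given in the labels, and a probe set outside that part checks nothing, so the livers are called here by their label only. Markers of hepatocytes were high in both groups: all 10 measured ones, Alb, Ttr and Apoa1 among them, exceeded the low-value limit of 3.38 log2 units on all 8 arrays, and none was called (0 also at an unadjusted p below 0.05). That limit is the 40% point of the genes' mean levels. Of the 10 hepatocyte markers 1 had a positive difference, against 60.1% of all tested genes, and the median difference was -0.29. Their summed log2 level was 128.9 to 130.5 in WT and 125.0 to 128.6 in the null livers, without overlap. Whether the share of hepatocytes differed was not tested. WT replicates 3 and 4 stood apart, their values spanning 3.97 and 3.74 log2 units between quartiles where the other 6 arrays spanned 4.31 to 4.44. The difference between the 3′ and 5′ probe sets of Actb, a sign of RNA quality, was 1.498 and 1.57 on them and 1.01 to 1.76 on the others. Over all genes 337 were called higher (4.47%) and 162 lower (2.15%), against 313 and 271 after a further quantile normalization, under which the median over all genes shifted by -0.11.

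Among the 9 measured pumps, 4 were called higher in TrxR1/Gsr-null liver (Abcc5, Abcg2, Abcc3 and Abcc2) and 1 lower (Abcc6). Abcc5 is counted although it passed the filter on low values through the null livers alone. The background for these counts is 4.47% of all tested genes called higher, 2.15% called lower and 6.62% in either direction. By sign alone 7 of the 9 differences were positive, against 60.1% of all tested genes. The values of the groups did not overlap for 6 of the 9 pumps, the 5 called ones and Abcb11, against 16.6% of all tested genes. The median log2 difference of the 9 pumps was 1.18, and that of all tested genes 0.10. The differences ranged from -1.65 for Abcc6 to 3.75 for Abcc5, so the pumps did not move one way. In bulk liver, fewer cells of a type and less RNA per cell cannot be told apart.

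**Figure D1:**
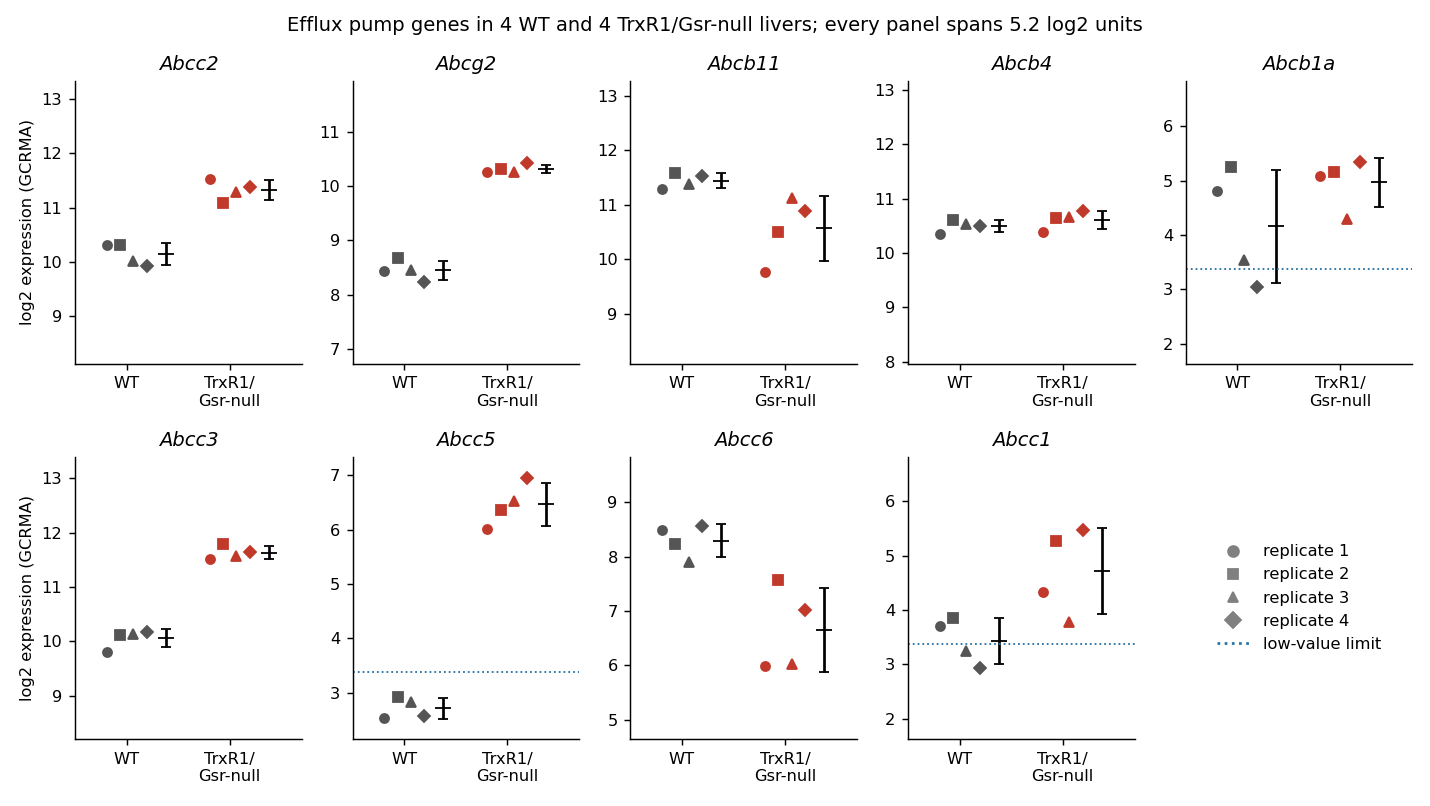
Log2 expression after GCRMA (vertical axis) of the 9 measured efflux pump genes, by group, with 1 symbol per liver, the mean and SD (n = 4) beside each group as a bar, and a dotted line at the low-value limit of 3.38 where it falls in the panel. Abcc2, Abcg2, Abcc3 and Abcc5 lie higher and Abcc6 and Abcb11 lower in all 4 TrxR1/Gsr-null livers than in any WT liver, while the groups overlap for Abcb4, Abcb1a and Abcc1.

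The canalicular pumps of conjugates and drugs were the first group. Abcc2 (probe set 1450109_s_at) exports glutathione and glucuronide conjugates, bilirubin glucuronide among them, into bile. Its 4 WT livers had log2 values of 10.32, 10.31, 10.02 and 9.93, and its 4 TrxR1/Gsr-null livers 11.53, 11.09, 11.29 and 11.38. Every null liver lay above every WT liver. Abcc2 rose 2.26-fold (95% interval 1.71 to 2.99, log2 difference 1.18 ± 0.18 SE, adjusted p = 0.0045), and 3.6% of tested genes had a larger rise. The call held with each array left out in turn and was lost within replicates 3 and 4 alone, where the difference was 1.36 (adjusted p = 0.0526). The probe set ends in _s_at, a kind that can match several transcripts, and Abcc2 has no other here.

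Abcg2 (1422906_at) is a half-size transporter of the canalicular membrane that pairs with itself and exports sulfate conjugates, urate, porphyrins and many drugs. Its WT values were 8.43, 8.67, 8.46 and 8.24, and its null values 10.25, 10.32, 10.25 and 10.42. The null livers were close to each other (SD 0.08) and all above WT (SD 0.18). Abcg2 rose 3.63-fold (95% interval 2.81 to 4.69, log2 difference 1.86 ± 0.17 SE, adjusted p = 0.000174). It was called in all 21 alternative settings, with differences from 1.74 to 1.99.

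The RefSeq promoter windows of the build GRCm38.p6, from 250 bases before to 50 bases after a gene's start, were searched for TGACNNNGC, the core of the antioxidant response element, on both strands. The search was made because Nrf2 is named in the title, and a match is a description of letters only. Of 32851 windows in the table, 12.4% held a match. Windows were found for 7 of the 10 pump genes, 10 windows in all. Counted by window, 4 of these 10 held a match, those of 3 genes: Abcc2, Abcc4 (both of its windows) and Abcb1a. The single window of Abcc5 and the 3 windows of Abcg2 held none, as did those of Abcb4 and Abcb11. Abcc1, Abcc3 and Abcc6 were without a window in the table. The windows of Abcc2 and Abcc5, pumps that both rose, are shown for their contrast, with the match in capitals, 5′ to 3′ along the gene. That of Abcc2 is chr19:43782058-43782357 on the plus strand, and that of Abcc5 is chr16:20426345-20426644 on the minus strand.
Abcc2: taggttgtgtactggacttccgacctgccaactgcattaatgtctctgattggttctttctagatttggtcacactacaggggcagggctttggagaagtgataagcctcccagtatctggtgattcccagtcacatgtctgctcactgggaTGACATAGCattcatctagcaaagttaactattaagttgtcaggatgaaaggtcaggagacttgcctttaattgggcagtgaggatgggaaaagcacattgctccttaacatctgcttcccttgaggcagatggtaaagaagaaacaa
Abcc5: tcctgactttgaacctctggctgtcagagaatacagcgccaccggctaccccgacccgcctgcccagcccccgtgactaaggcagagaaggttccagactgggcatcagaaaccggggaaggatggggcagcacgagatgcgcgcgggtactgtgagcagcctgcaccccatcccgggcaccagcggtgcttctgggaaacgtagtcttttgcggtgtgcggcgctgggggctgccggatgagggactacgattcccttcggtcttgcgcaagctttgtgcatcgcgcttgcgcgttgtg
The match in Abcc2 is TGACATAGC, on the gene's own strand, and begins 98 bases before the start. The match in Abcb1a, TGACTCCGC on the opposite strand, lies after the start. The windows also differ in base composition: the Abcc2 window is 45.0% G and C and that of Abcc5 63.0%, against a median of 52.7% over all windows.

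The bile-forming pumps came next. Abcb11 (1449817_at), the bile salt export pump, moves bile salts into the canaliculus. Its WT values were 11.29, 11.59, 11.38 and 11.54, and its null values 9.77, 10.50, 11.12 and 10.89. Every null liver was below every WT liver, but the null livers spread widely (SD 0.59 against 0.14). The log2 difference was -0.88 ± 0.28 SE (1.84-fold lower, 95% interval 1.20 to 2.82), and Abcb11 was not called (adjusted p = 0.0914). It was called with replicates 1 and 2 against 3 and 4 as a block (adjusted p = 0.0396), with array weights (adjusted p = 0.0154) and within replicates 1 and 2 alone (difference -1.31, adjusted p = 0.0448). Within replicates 3 and 4 the difference was -0.45 (adjusted p = 0.344).

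Abcb4 (1449818_at) turns phosphatidylcholine to the outer leaflet of the canalicular membrane, from where bile salts carry it into bile. It had 10.35, 10.61, 10.54 and 10.50 in WT and 10.38, 10.64, 10.66 and 10.77 in the null livers. The groups overlapped, and the difference was 0.11 ± 0.17 SE with a 95% interval of -0.26 to 0.48 (adjusted p = 0.743). The interval thus leaves room for a fold between 0.836 and 1.396 in the null livers.

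Abcb1a, the P-glycoprotein that exports bulky hydrophobic drugs, was measured by 2 dim probe sets. At the brighter one (1419759_at) the WT values were 4.81, 5.24, 3.54 and 3.04 and the null values 5.08, 5.15, 4.30 and 5.34. WT replicates 3 and 4, the arrays with narrower distributions, were lowest, and the other 2 WT livers were within the range of the null livers. The difference was 0.81 ± 0.46 SE (95% interval -0.21 to 1.83, adjusted p = 0.336). Without WT replicates 3 and 4 it was -0.06 (adjusted p = 0.935), and within replicates 1 and 2 it was 0.09 (adjusted p = 0.831). At this probe set the size of the difference thus rests on WT replicates 3 and 4. The other Abcb1a probe set (1419758_at) differed by 0.67 (adjusted p = 0.392 over all probe sets). There WT replicates 1 and 2 had 3.89 and 4.28, below the 4.90 and 4.99 of null replicates 1 and 2. Null replicates 3 and 4 (3.42 and 4.26) were within the WT range.

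Among the pumps toward blood, Abcc3 (1428988_at) carries glucuronides and bile salts across the basolateral membrane. Its WT values were 9.80, 10.12, 10.14 and 10.17, and its null values 11.52, 11.78, 11.57 and 11.64. Every null liver was above every WT liver, and WT replicate 1 was the lowest of all. Abcc3 rose 2.97-fold (95% interval 2.29 to 3.85, log2 difference 1.57 ± 0.17 SE, adjusted p = 0.000529). It was called in all 21 alternative settings, with differences from 1.45 to 1.69.

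Abcc6 (1421212_at) is a basolateral pump of hepatocytes through which ATP leaves the cell, and in people its loss underlies pseudoxanthoma elasticum, a disorder of ectopic mineralization. Its WT values were 8.50, 8.23, 7.89 and 8.57, and its null values 5.99, 7.56, 6.03 and 7.01. The groups did not overlap, and null replicates 1 and 3 lay lowest. Abcc6 fell 3.13-fold (95% interval 1.82 to 5.38, log2 difference -1.65 ± 0.35 SE, adjusted p = 0.0214), and 0.584% of tested genes fell more. It was no longer called after leaving out WT replicate 4, or null replicate 1, or null replicate 3 (adjusted p = 0.0511, 0.0638 and 0.0571), without both WT replicates 3 and 4 (adjusted p = 0.0719), within replicates 1 and 2 (adjusted p = 0.103) and within replicates 3 and 4 (adjusted p = 0.086). The difference itself stayed between -1.95 and -1.27 in the 21 settings.

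Abcc1 (1452233_at), a glutathione conjugate pump found in most tissues, was close to background. Its WT values were 3.71, 3.85, 3.25 and 2.93, and its null values 4.34, 5.27, 3.79 and 5.47. Null replicate 3 was below the highest WT liver, and WT replicates 3 and 4 were under the low-value limit. The difference was 1.28 ± 0.38 SE (95% interval 0.45 to 2.12), and Abcc1 was not called (adjusted p = 0.072). It was called without TrxR1/Gsr-null replicate 3 (adjusted p = 0.0309), with array weights (adjusted p = 0.0178) and with replicates 1 and 2 against 3 and 4 as a block (adjusted p = 0.0443). Its second probe set, 1421378_s_at, did not exceed the low-value limit on any array.

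Abcc5, which exports cyclic nucleotides and glutamate conjugates, rose at 3 of its 7 probe sets. At its brightest probe set (1427565_a_at) the WT values were 2.53, 2.92, 2.82 and 2.58, and the null values 6.01, 6.37, 6.52 and 6.96. All 4 WT livers were below the low-value limit and all 4 null livers far above it. Abcc5 thus passed the filter through the null livers alone, and its WT level is not measured above background. Its null mean stood 8.51-fold above the low-value limit. The log2 difference between the group means as deposited was 3.75 ± 0.22 SE (adjusted p = 1.34e-05), or 13.5-fold (95% interval 9.57 to 19.0), a fold that depends on WT values near background.

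The 7 probe sets of Abcc5 did not act alike. Besides the brightest one, 1418042_a_at differed by 3.14 ± 0.42 SE (adjusted p = 0.00446) and 1438056_x_at by 2.50 ± 0.35 SE (adjusted p = 0.00574), both over all probe sets. At 1418042_a_at the null livers had 4.98, 5.51, 6.44 and 7.24, against 2.70 to 3.17 in WT. At 1438056_x_at they had 4.09, 5.08, 5.65 and 5.77, against 2.35 to 2.94. On all 3 probe sets null replicate 1 was the lowest and null replicate 4 the highest of its group. Group means at the other 4 ran from 1.59 to 3.22, under the low-value limit. They were not called (adjusted p from 0.0727 to 0.889). Among them are 1418043_at and 1435684_at, which end in plain _at (adjusted p = 0.795 and 0.126). The 3 that rose all end in _a_at or _x_at. With the mean of all 7 the Abcc5 difference was 1.49 on the log2 scale (adjusted p = 0.000944), smaller than those of Abcg2 (1.86) and Abcc3 (1.57). The annotation does not say which part of Abcc5 each probe set covers, and whether the probe sets differ in transcript or in sensitivity was not tested.

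**Figure D2:**
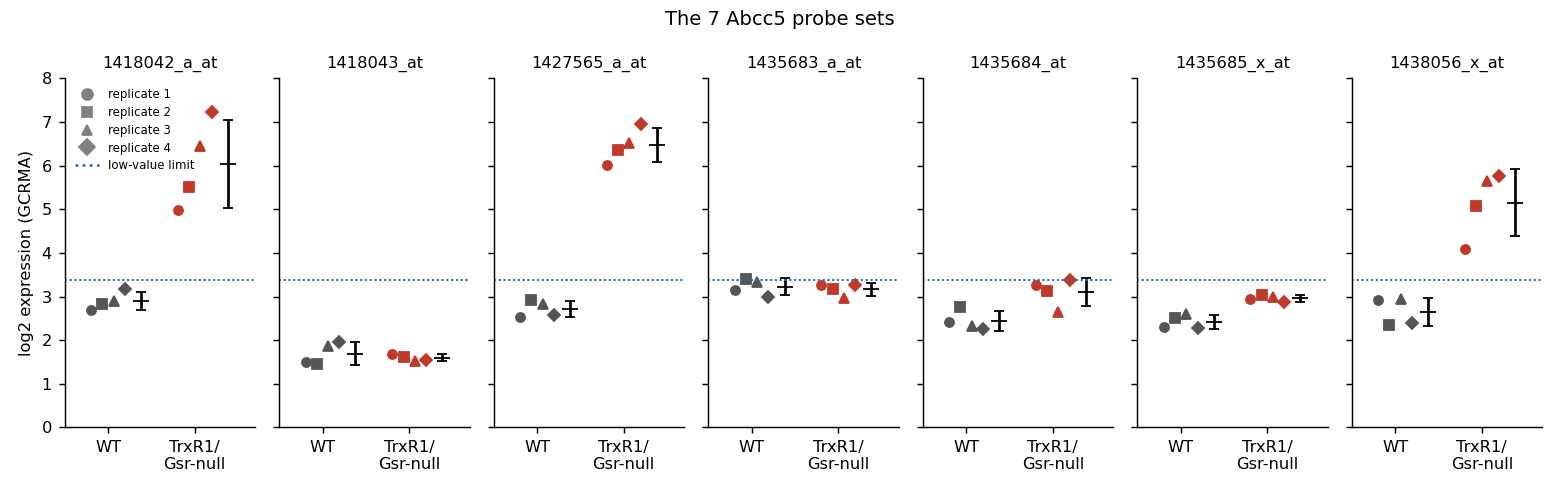
Log2 expression after GCRMA (vertical axis) at each of the 7 Abcc5 probe sets, by group, with 1 symbol per liver, the mean and SD (n = 4) as a bar and the low-value limit of 3.38 as a dotted line. At 3 probe sets all TrxR1/Gsr-null livers lie above the limit and all WT livers below it, and at the other 4 the group means of both genotypes lie below it.

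Counted over all 17 probe sets without the filter on low values, 6 were called higher, 1 lower and 10 not, with 2.97% of all 22626 probe sets called in either direction. Of the 17, 3 stayed below the low-value limit on all 8 arrays. With the replicate number as a block, the same numbers of pumps were called, 4 higher and 1 lower.

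Genes whose profile over the 8 livers was most like that of each called pump were taken by the root mean square distance between gene-centred log2 values, as a description. Nearest to Abcg2 were Txnrd1 itself (distance 0.18), the transketolase Tkt (0.20) and the small GTPase Ran (0.21). Nearest to Abcc5 were the heme transporter Slc48a1 (0.25), the aldehyde oxidase Aox1 (0.32) and Gipc2 (0.42). Nearest to Abcc2 were the transaminase Bcat2 (0.11), the tubulin Tubb2a (0.14) and the peroxisomal oxidase Acox2 (0.15), and nearest to Abcc3 were periplakin, Ppl (0.15), the chaperone Hsp90aa1 (0.18) and Fam241b (0.19). Nearest to Abcc6 were Trim12a (0.24), the complement protease Masp2 (0.34) and Vnn3 (0.35). The distance is small for any genes with a like difference between the genotypes, so it adds little beyond the size of that difference.

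The other ABC transporters, which move lipids, peptides, heme precursors and sterols or act in translation, gave no call. Of 43 on the list 30 had a probe set and 20 passed the filter, and of these 0 were called by limma in either direction, with 2 higher and 2 lower at an unadjusted p below 0.05 (22.9% of all tested genes reach that in either direction). Their median log2 difference was 0.04, with a range from -0.97 to 0.89. Across the alternative settings 0 to 1 were called higher and 0 to 2 lower. The first measured ones were the cholesterol exporter Abca1 (10.69 ± 0.22 and 10.53 ± 0.20, SD, n = 4 each, adjusted p = 0.667), Abca2 (adjusted p = 0.414) and Abca3 (adjusted p = 0.394). Whether the pumps and the other ABC genes differ as lists was not tested.

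Many enzymes that make conjugates of the kinds carried by Abcc2 and Abcc3, or supply glutathione and UDP-glucuronate for them, rose. Of 28 tested genes of glutathione and glucuronide conjugation 15 were called higher and 0 lower (4.47% and 2.15% of all tested genes), with 1 lower at an unadjusted limma p below 0.05 and up to 2 lower in other settings, and the median difference was 0.81. Ugdh, which makes UDP-glucuronate, rose 6.11-fold (adjusted p = 3.98e-05). The glutathione transferases Gsta2, Gstm4 and Gstm2 rose 9.75-, 5.71- and 6.83-fold (adjusted p from 9.39e-05 to 0.000333). Gclc, Gclm and Gss, which make glutathione, are also among the 15. So is Mgst2, which passed the filter through the null livers alone (5.36 to 8.45, against 2.19 to 2.56 in WT). The glucuronosyltransferases Ugt2b1 and Ugt2b34 were called (adjusted p = 0.018 and 0.0262). Ugt2b5 and Ugt2a3 were not (adjusted p = 0.156 and 0.314).

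Carriers that bring substrates into hepatocytes included genes called in each direction. Of 8 tested sinusoidal uptake carriers 1 was called higher and 2 lower, against 4.47% and 2.15% of all tested genes. With the replicate block these were 1 and 4, where 454 and 240 of all 7534 genes were called. At an unadjusted limma p below 0.05, 1 carrier was higher and 5 were lower (22.9% of all tested genes reach that in either direction). Of the 8 differences 3 were positive, and the median was -1.06. The organic anion carrier Slco1a4 fell from 9.92 ± 0.60 to 7.33 ± 0.26 (SD, n = 4 each), 5.99-fold (adjusted p = 0.000704), and the nucleoside carrier Slc29a1 fell 3.27-fold (adjusted p = 0.00728). Slc29a1 was not called within replicates 1 and 2 (difference -1.47, adjusted p = 0.0792). The carnitine carrier Slc22a5 rose 2.55-fold (adjusted p = 0.0183). It was no longer called when WT replicates 3 and 4 were dropped (adjusted p = 0.0537) or within either pair of replicate numbers. Slc10a1, the bile salt uptake carrier, had a mean of 12.31 in WT against 11.91 in null liver, without a call (adjusted p = 0.18).

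Of 10 tested genes for other exporters, the flippase partner and the canalicular scaffold, 2 were called higher and 1 lower (4.47% and 2.15% of all tested genes), with a median difference of 0.03. Ezr, the membrane-to-actin linker ezrin, rose from 4.35 ± 0.46 to 5.86 ± 0.47 (SD, n = 4 each), 2.84-fold (adjusted p = 0.0138). The brighter Rdx (radixin) and Msn (moesin) of the same list were not called. Rdx averaged 10.75 in WT and in null liver (adjusted p = 0.998), and Msn 7.71 and 7.69 (adjusted p = 0.961). Which cells made the Ezr RNA was not tested. Myo5b, a motor of apical vesicle traffic, rose 1.88-fold (adjusted p = 0.0274) and Slc9a3r1, a PDZ scaffold of apical transporters, fell 1.92-fold (adjusted p = 0.0273). The calls of Myo5b and Slc9a3r1 were each lost in 5 of the 8 fits with 1 array left out (adjusted p up to 0.077 and 0.0778). All 3 calls were lost without WT replicates 3 and 4 and within replicates 3 and 4.

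Of 14 tested transcription factors known to act on pump genes 0 were called in either direction by limma, with 1 higher and 4 lower at an unadjusted p below 0.05, and 0 to 1 in each direction across the settings. The mRNA of Nrf2 itself, Nfe2l2, was 9.51 ± 0.24 in WT and 8.95 ± 0.33 in null liver (mean ± SD, n = 4 each, adjusted p = 0.157). Keap1, which marks Nrf2 protein for degradation, averaged 7.23 and 7.64 (adjusted p = 0.188), and the drug receptor PXR, Nr1i2, 4.39 and 4.47 (adjusted p = 0.89). These are RNA levels, and Nrf2 is known to be set largely at the level of its protein.

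**Figure D3:**
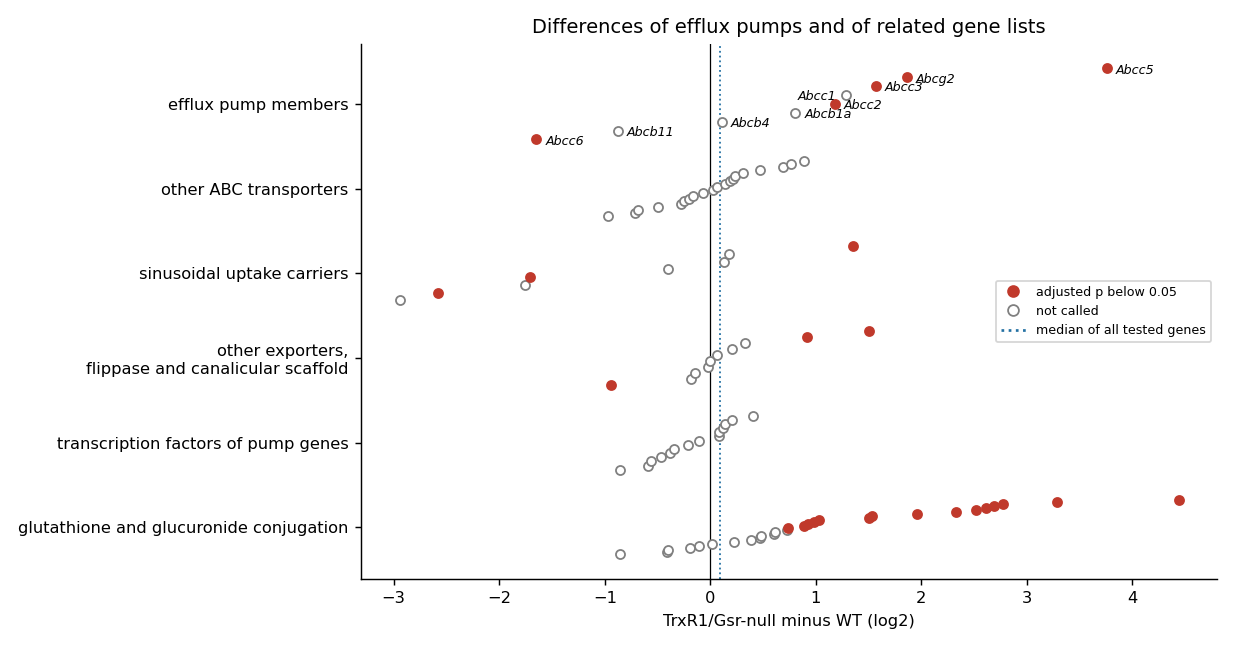
Log2 difference between TrxR1/Gsr-null and WT liver (horizontal axis) of each tested efflux pump and of each tested gene of 5 related lists, with filled points for an adjusted p below 0.05, open points for genes not called and a dotted line at the median of all tested genes, 0.10. The pumps range from -1.65 to 3.75, and none of the 20 other ABC transporters, which range from -0.97 to 0.89, is called.

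Some pumps are also made by cells other than hepatocytes, among them Abcb1a and Abcc1 in endothelial cells and macrophages and Abcc3 in bile duct cells. Of 7 measured bile duct markers 1, Pkhd1, was above the low-value limit on all arrays. Its log2 difference was -0.64, without a call (adjusted p = 0.501). Epcam was called higher (2.93 in WT and 3.87 in the null livers, adjusted p = 0.041) but lay below the limit on 5 of the 8 arrays. It was the only 1 of the 3 tested markers with a positive difference. Krt7 and Krt19 had group means of 2.87 to 3.11, under the limit. The summed log2 level of the 7 was 22.4 to 24.6 in WT and 21.1 to 24.3 in the null livers. Of 9 Kupffer cell and macrophage markers, Adgre1, Clec4f and Cd68 first on the list, 0 were called by limma (3 lower and 0 higher at an unadjusted p below 0.05), with sums of 70.0 to 75.8 in WT and 67.8 to 72.7 in the null livers. Of 11 endothelial markers, Pecam1, Cdh5 and Kdr first, 0 were called (1 lower and 0 higher unadjusted), with sums of 74.0 to 80.5 and 73.3 to 76.3. Stellate cell and fibroblast markers (10 measured, Lrat, Reln and Des first) gave 0 calls among 8 tested (1 lower unadjusted), with sums of 69.5 to 72.8 and 65.4 to 71.3. Erythroid markers gave 0 of 2 tested (0 unadjusted), with Hba-a1 below the limit on all arrays. Lymphocyte and neutrophil markers gave 0 of 3 tested (2 higher unadjusted). The neutrophil genes S100a8 and S100a9 differed by 1.30 and 1.14 (adjusted p = 0.0541 and 0.108), and Ptprc by 0.27 (adjusted p = 0.408). The lymphocyte genes Cd3e and Cd3g were below the limit on all arrays, and Cd8a on 7 of the 8. Proliferation markers gave 0 of 5 tested (0 unadjusted, median difference 1.11). The part of these cells in the pump differences was not tested.

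**Figure D4:**
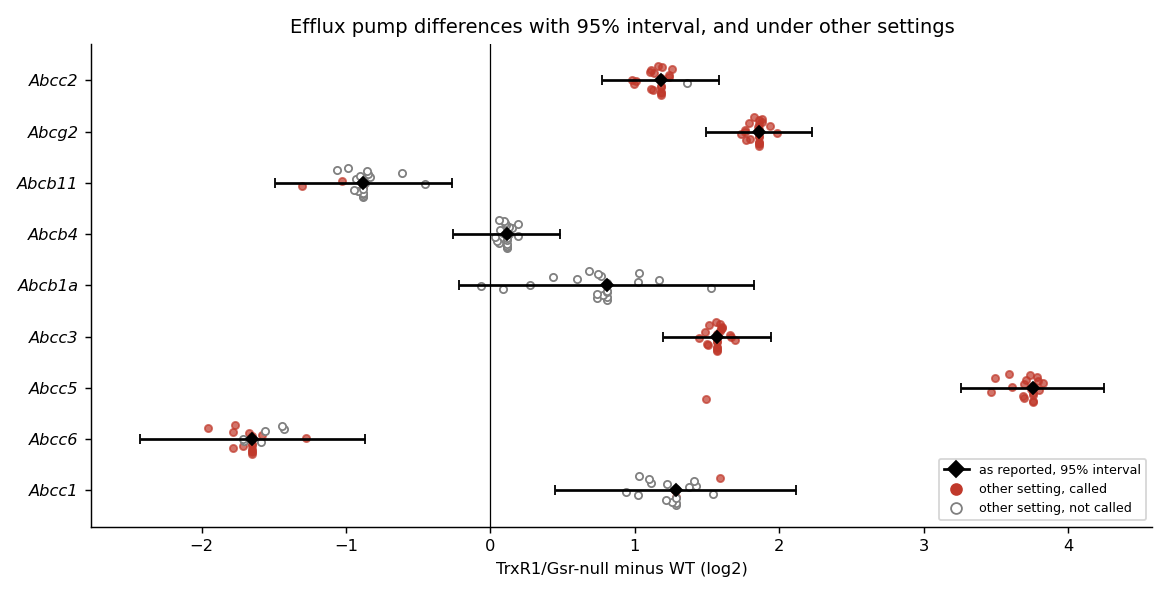
Log2 difference between TrxR1/Gsr-null and WT liver (horizontal axis) of the 9 pumps, as reported with its 95% interval (black diamonds) and under each alternative setting (points, filled where the adjusted p was below 0.05). Abcg2 and Abcc3 were called in all 21 settings, and Abcc5 in the 20 in which it passed the filter. Abcc6 lost its call in 6 settings, Abcb4 was never called, and Abcb1a crossed 0 in 1 setting.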

How the data were processed

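Per the labels' protocols, total RNA of each liver was extracted with an Ambion RiboPure kit, amplified and labelled with biotin. The authors deposited 1 log2 value per probe set and array, made with GCRMA per the submitters' processing notes, which as used here name neither a version nor settings. Values run from 0.53 to 14.61, from which the scale was taken. The annotation pairs 20380 probe sets with 1 gene symbol, 691 with several and 1555 with none, and 64 are controls. Symbols were updated by gene identifier in a RefSeq table of GRCm38.p6 (20351 matched). No gene coordinates are given, since no build is named for the array.

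Each gene was read from its brightest probe set by the mean of 8 arrays, using those ending in _x_at only where it had no other. The lowest 40% of genes by mean were dropped, except those above that limit on 4 or more arrays. The genotypes were tested in R 4.3.3 by limma 3.58.1 (lmFit and eBayes, no covariates, two-sided, Benjamini-Hochberg over all genes tested). Probe sets were also tested without the filter. The fit was tested on simulated data. Arrays are labelled biological replicates, and 0 were identical. Same-numbered samples of the 2 groups deviated together (4 pairs, correlations 0.21 to 0.37), so the replicate number was also fitted as a block. The labels name no batch.

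The rule for named genes took all members, up to 4 called genes per direction of each related list (the first 3 where none was called), the first 3 markers of each cell type and the 3 nearest profiles. The members and lists were chosen with earlier results of these data known. Slc10a1, Abcb1b, Slco1a1 and other genes named outside the rule were chosen after their values were seen. Alternatives were the filter, the choice of probe set, the scaling, blocks, weights, the prior and left-out arrays.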

Additional observations from a re-analysis of the deposited data

Results flagged for a closer look

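In all, 80 groups of 4 livers were examined, over 40 probe sets. These were all probe sets of the pumps, Txnrd1 and Gsr, 1 for each gene that the rule took from the related lists, and those of Abcb1b and Slco1a1. No other gene named in the report was examined, so cell type markers were left out. Of the 80 groups, 7 had 1 liver set apart from the other 3 by a gap above Dixon's 95% limit. Chance gives about 4, but 2 of the 7 are groups of Abcb1b and Slco1a1, transporters with wide gaps. They were picked for those values, so the 7 cannot be set against chance. Abcb1b, a P-glycoprotein paralogue of Abcb1a, was 7.08 in TrxR1/Gsr-null replicate 1 and 2.17 to 2.68 in the other 3 null livers (gap 0.896 of the range), with 2.06 to 3.11 in WT. It was left out of the gene test by the filter. In the same liver Abcb11 and Abcc6 were the lowest of all 8 livers (9.77 and 5.99). Null replicate 3 was nearly as low for Abcc6 (6.03), but had Abcb1b at 2.51 and the highest Abcb11 of the null livers (11.12). Slco1a1, an organic anion uptake carrier, was 7.25 in TrxR1/Gsr-null replicate 3 and 2.83 to 3.51 in the other 3 (0.847), and its WT values ran from 4.93 to 9.83. Both genes were added after their values were seen.

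Abcc3 was 9.80 in WT replicate 1 and 10.12 to 10.17 in the other WT livers (0.847). Ezr was 5.16 in TrxR1/Gsr-null replicate 3 and 6.01 to 6.16 in the others (0.856). Gstm2 was 8.69 in WT replicate 3 and 9.53 to 9.60 in the others (0.925). Among the targeted genes, Txnrd1 was 9.56 in WT replicate 4 and 9.88 to 9.93 in the others (0.868), and Gsr was 7.03 in WT replicate 1 and 7.20 to 7.21 in the others (0.95).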

How the results depend on the processing

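Each result was recomputed under 21 alternatives (17 for the probe sets). The rises of Abcg2 and Abcc3 were called in all 21, that of Abcc5 in the 20 in which it was tested and that of Abcc2 in 19 of 20. Without probe sets ending in _x_at, _s_at or _a_at, what was left of Abcc5 did not pass the filter, so it had no call there. Pumps called higher numbered 4 as reported and 2 without probe sets ending in _x_at, _s_at or _a_at, where Abcc2 and the bright Abcc5 probe sets are not used. With 1 array left out they were 4 to 5. Pumps called lower numbered 1 as reported, 2 with replicates 1 and 2 against 3 and 4 as a block and 2 with array weights (Abcc6 and Abcb11), 1 within replicates 1 and 2 (Abcb11, with Abcc6 not called), 0 within replicates 3 and 4, 0 without WT replicates 3 and 4, and 0 to 1 with 1 array left out (0 when the array left out was WT replicate 4, null replicate 1 or null replicate 3).

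With the replicate number as a block, 4 pumps were called higher and 1 lower, as without it, while sinusoidal uptake carriers called lower went from 2 to 4. Over all genes, 337 were called higher and 162 lower. These became 647 and 334 with replicates 1 and 2 against 3 and 4 as a block, 578 and 428 with array weights, and 159 and 30 within replicates 3 and 4. A further quantile normalization gave 271 lower, leaving out WT replicates 3 and 4 gave 188 higher, and leaving out 1 array gave 191 to 384 higher and 76 to 130 lower. The pump probe sets called were 5 to 9 across settings.

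Directions reversed for Abcb1a, at -0.062 without WT replicates 3 and 4, and for Nr1i2, at -0.017 after quantile normalization, -0.34 within replicates 1 and 2, -0.37 without WT replicates 3 and 4, -0.17 with array weights, and from -0.12 (without WT replicate 4) to 0.25 (without WT replicate 1) with 1 array left out. Neither was called. The causes were not tested. Values near the low-value limit (Abcc1, Abcb1a and Abcc5 in WT) give the least certain folds.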
